A study of Homo sapiens with 6 samples.

Results

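CD34, KIT, CD44, PROM1 and CD47 encode surface proteins studied on blood stem and progenitor cells, though CD47 is not particular to them. The histone marks over these genes were compared in K562 cells with and without a hairpin against Staufen 2. The members were chosen by name and are 5 of 19974 protein-coding genes on chromosomes 1 to 22 and X. Every listed peak that touched a gene body or the 20 kb on either side of it was taken, with gene positions from RefSeq GRCh38.p14, the build of the peaks. K562 is an established human line from the blast crisis of chronic myeloid leukaemia and carries BCR-ABL1. Chromatin immunoprecipitation with sequencing (ChIP-seq) was directed at histone H3 with 2 or 3 methyl groups on lysine 4, written H3K4me2 and H3K4me3. The series asked how knockdown of Staufen 2 affects this methylation. Staufen 2 is the product of STAU2 and binds double-stranded stretches of RNA. The cells carried a control short hairpin RNA (shControl) or one against Staufen 2 (shStau2). For each hairpin there is 1 H3K4me2, 1 H3K4me3 and 1 input library. The hairpin sequences and the number of clones are not given in the sources used here. There are no replicates, so values are set side by side with no test. A bulk profile cannot tell fewer cells with a mark from less of the mark in each cell.

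KIT is the receptor tyrosine kinase for stem cell factor, the product of KITLG, and drives survival and growth of progenitors and mast cells. CD44 is the main receptor for hyaluronan and holds cells in their niche. CD34 is a sialomucin of progenitors and vessel walls that can bind selectins. CD47 is carried by nearly every cell and tells macrophages, through their receptor SIRPA, not to engulf it. PROM1 (CD133) is a membrane protein of cell protrusions used to sort stem cells. Active promoters usually carry H3K4me3, while H3K4me2 is spread over promoters and enhancers alike.

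The stretch of 250 bases before each gene start is shown because the genes differed in their marks at the start and in their density of CpG there. CFP1, a subunit of complexes that methylate lysine 4, binds CpG that is itself unmethylated. Capitals mark each CpG. Sequences are from RefSeq, build GRCh38.p14, in the direction of transcription, and end 1 base before the annotated start. They lie at chr1:207911126-207911375 on the minus strand (CD34), chr4:54657707-54657956 on the plus strand (KIT), chr11:35138921-35139170 on the plus strand (CD44), chr3:108091032-108091281 on the minus strand (CD47) and chr4:16084024-16084273 on the minus strand (PROM1, the outermost of its 4 listed starts).
CD34: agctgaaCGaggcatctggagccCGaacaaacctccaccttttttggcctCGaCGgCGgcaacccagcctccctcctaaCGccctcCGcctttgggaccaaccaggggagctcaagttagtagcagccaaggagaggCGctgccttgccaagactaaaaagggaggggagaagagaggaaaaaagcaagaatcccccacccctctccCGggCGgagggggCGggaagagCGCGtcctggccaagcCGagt
KIT: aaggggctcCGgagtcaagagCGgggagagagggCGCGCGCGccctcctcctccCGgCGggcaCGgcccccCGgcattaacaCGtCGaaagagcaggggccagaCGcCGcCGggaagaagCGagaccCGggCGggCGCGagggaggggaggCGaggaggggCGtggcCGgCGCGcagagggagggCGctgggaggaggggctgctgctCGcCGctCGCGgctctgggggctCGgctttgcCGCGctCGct
CD44: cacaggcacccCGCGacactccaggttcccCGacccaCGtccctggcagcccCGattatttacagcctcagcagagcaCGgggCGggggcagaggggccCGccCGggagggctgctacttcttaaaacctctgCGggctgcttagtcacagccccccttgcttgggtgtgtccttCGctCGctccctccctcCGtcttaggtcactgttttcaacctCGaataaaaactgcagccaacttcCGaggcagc
CD47: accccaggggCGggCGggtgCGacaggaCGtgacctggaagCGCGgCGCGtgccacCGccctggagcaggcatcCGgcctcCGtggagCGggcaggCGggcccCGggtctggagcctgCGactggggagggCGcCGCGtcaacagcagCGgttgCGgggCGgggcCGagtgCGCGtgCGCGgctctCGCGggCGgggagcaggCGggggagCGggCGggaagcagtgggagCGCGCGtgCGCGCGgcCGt
PROM1: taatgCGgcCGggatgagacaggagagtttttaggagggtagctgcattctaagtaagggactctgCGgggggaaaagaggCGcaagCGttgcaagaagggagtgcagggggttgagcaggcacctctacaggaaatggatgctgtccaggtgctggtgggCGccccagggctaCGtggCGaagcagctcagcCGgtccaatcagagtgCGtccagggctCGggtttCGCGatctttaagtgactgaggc

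The KIT stretch held 34 CpG and the CD47 stretch 39, more than 91.4% and 96.7% of 22132 such stretches before protein-coding gene starts. The CD34 stretch held 14 and the CD44 stretch 15, just below the median of 16. The PROM1 starts, from the outermost inward, held 13, 26, 17 and 5. KIT and CD47 were also the members whose starts carried both marks under shControl. Of all genes compared, counting the start richest in CpG, the median was 24 in the 7783 genes with both marks at a start, 9 in the 858 with H3K4me2 only and 4 in the 3243 with neither. PROM1, with 26 at its richest start and no mark, lay above the median of the genes with both marks. The letters GGGCGG, a GC box, occurred on either strand before 5 of the 8 member starts, with 6 copies at CD47, and before 53.7% of all starts. GATAA, the core of a GATA site, occurred before 0 of the 8 and before 16.8% of all starts. CCAAT was found before the outermost PROM1 start, and before 32.7% of all. TGANTCA, an AP-1 motif, was found before the innermost PROM1 start, and before 5.35% of all. No match overlapped another motif. These are matches of letters within these stretches and do not show whether a factor binds.

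The ChIP libraries held 26221869 to 30744332 tags after removal of duplicates, and the inputs 18826946 and 19921064. Fold enrichment is the authors' ratio of the fragments piled up at a peak's summit to the local background in the input, each plus 1. Scaled pileup is used here for the fragments at the summit per 1000000 ChIP tags, which leaves the input out. At 15552 H3K4me3 peaks matched 1 to 1 between hairpins, the median ratio of shStau2 to shControl was 1.95 for fold enrichment and 1.85 for scaled pileup. At 40029 matched H3K4me2 peaks these ratios were 1.17 and 1.13. Ratios at the 5 genes are therefore read against these medians. All 10 K562 markers examined, GATA1, TAL1 and HBG1 among them, carried H3K4me3 at a gene end under each hairpin, and none of 5 B cell markers did. Of 5 T cell markers CD4 carried it under each hairpin, of 3 hepatocyte markers APOA1 did, and of 5 monocyte and granulocyte markers LYZ did under shStau2. None of CDKN2A, CDKN2B and MTAP, which K562 has lost, carried it. STAU2 carried H3K4me3 at a gene end under each hairpin, which does not check a knockdown of its mRNA.

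The marks set the 5 genes apart before any comparison of hairpins. The plot of listed peaks along the genes shows that H3K4me3 stood at the starts of KIT and CD47, beyond the 3' end of CD34, at the start of CD44 under shStau2, and nowhere over PROM1. In all, H3K4me3 peaks numbered 4 under shControl and 5 under shStau2 and covered 5352 and 7248 bases. H3K4me2 peaks numbered 22 and 21 and covered 19385 and 22027 bases. The median ratio of covered bases over members was 1.22 for H3K4me3, from the 3 with bases under each hairpin, and 1.15 for H3K4me2, from 4. Over all genes these medians were 1.26 and 1.11. The sums had ratios of 1.35 for H3K4me3, where they also count CD44, and 1.14 for H3K4me2.

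**Figure D1:**
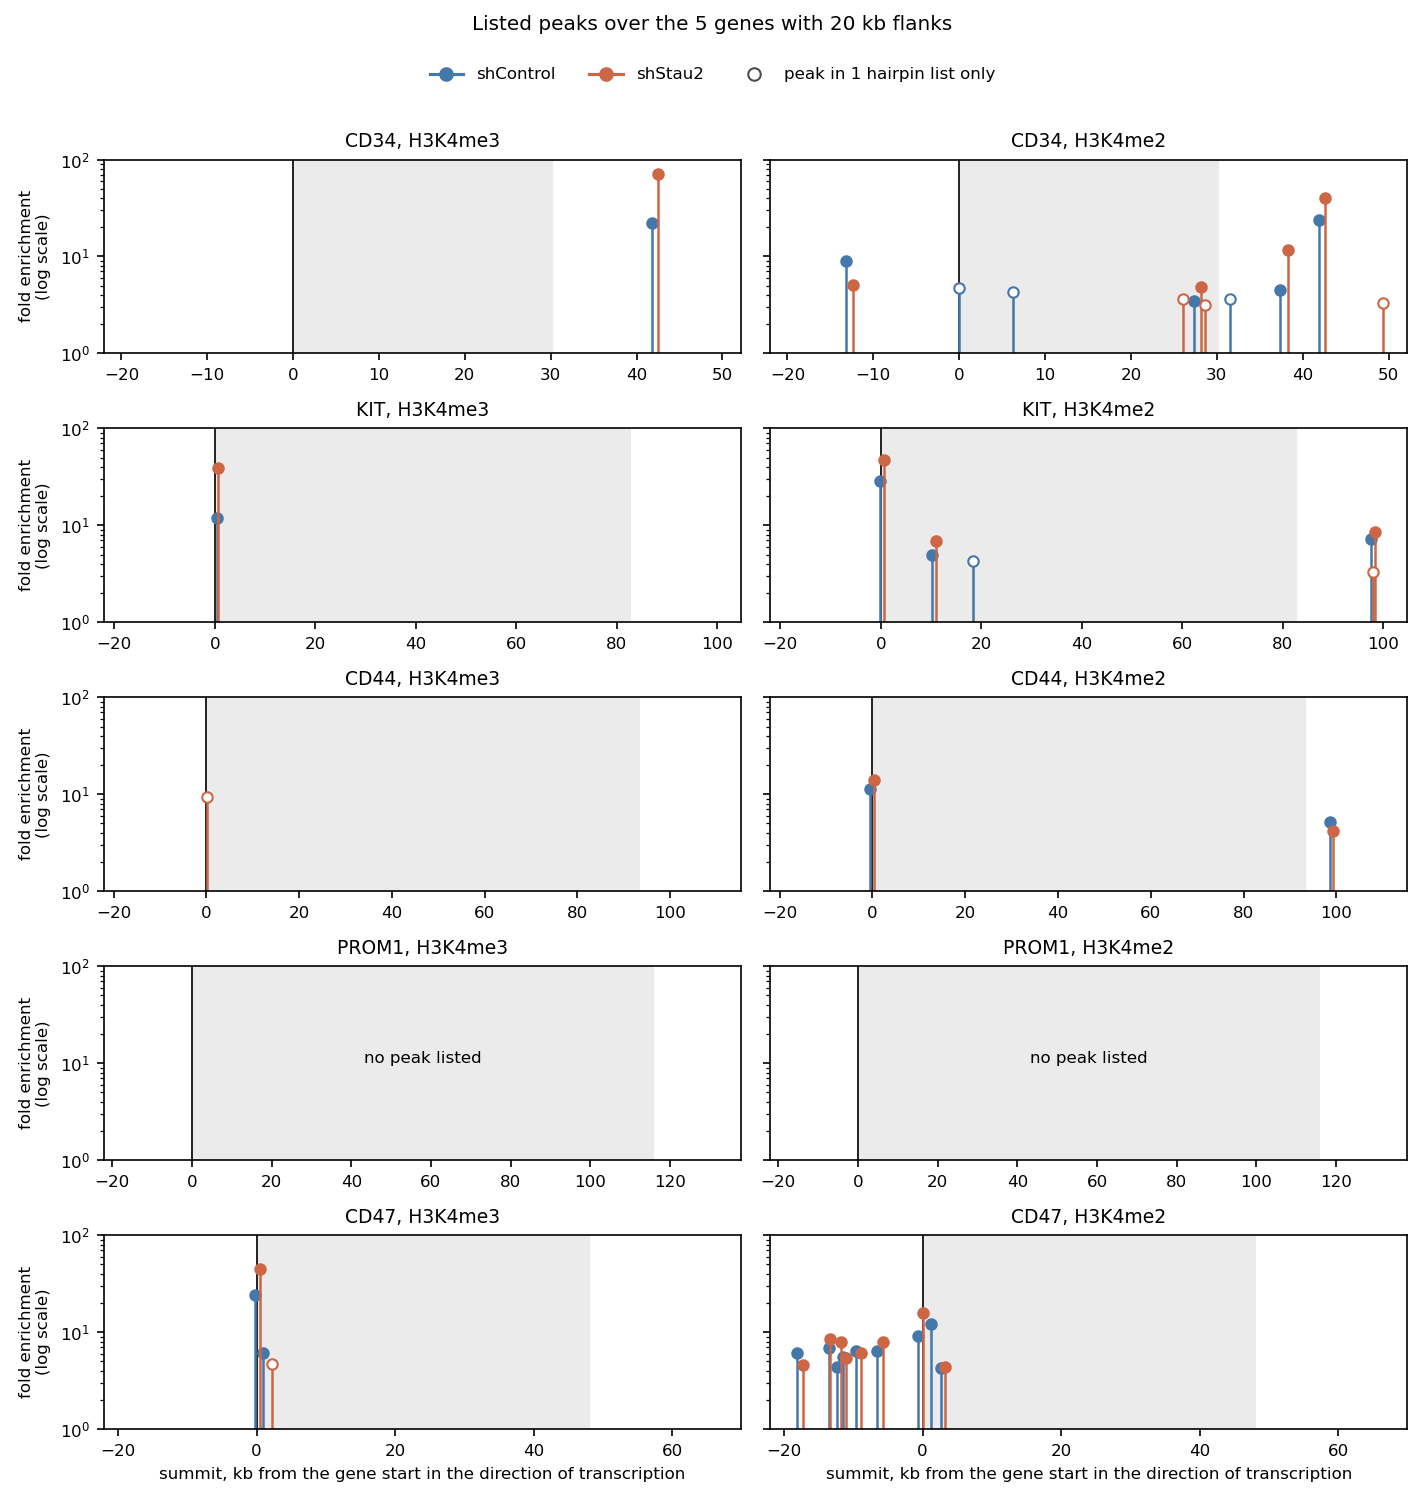
Each stem is a listed peak, at its summit's distance from the outermost gene start in kb (direction of transcription to the right) and with its fold enrichment as height on a log scale; grey is the gene body, and stems of the hairpins are moved 0.35 kb to either side so that they do not hide each other. KIT and CD47 carry H3K4me3 at the start, the CD34 peak with H3K4me3 lies 42.2 kb from the start, CD44 has its H3K4me3 peak in the shStau2 list only (open symbol), and PROM1 has no peak.

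At KIT, on chromosome 4 from 54657957 to 54740715, peaks of both marks lay at the start under each hairpin. The H3K4me3 peak spanned 54657661 to 54659746 under shControl, with 12.0-fold enrichment. Under shStau2 it spanned 54657559 to 54659801, with 39.2-fold enrichment. The ratio of 3.26 was higher than at 93.7% of matched H3K4me3 peaks. Its scaled pileup was 2.50 and 4.83, a ratio of 1.93, which was higher than at 61.2% of them. The local background at the summit, in fragments scaled to the input library, was 3.0 under shControl and 1.48 under shStau2. The summit lay 0.711 kb inside the gene under shControl and 0.253 kb under shStau2, so these backgrounds were read at different positions. At 0.253 kb, where the shControl H3K4me2 peak had its summit, the shControl background was 1.39.

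H3K4me2 at the KIT start covered a wider stretch, 2755 bases under shControl and 3094 under shStau2. Its fold enrichment was 28.9 and 46.7, a ratio of 1.62. Here the background was near equal, at 1.39 and 1.48, and the scaled pileup was 3.62 and 5.75. That pileup ratio, 1.59, was higher than at 94.1% of matched H3K4me2 peaks. The balance of the marks at the KIT start was low in H3K4me3. Its H3K4me3 fold enrichment was 0.417 times that of H3K4me2 under shControl, lower than at all but 5.31% of the 7783 gene starts with both marks, where the median was 1.18. Under shStau2 it was 0.840 times, against a median of 1.90 over 8138 starts, and 14.1% of starts were lower. By scaled pileup, which leaves out the unequal backgrounds of 3.0 and 1.39 under shControl, the ratio was 0.691 under shControl and 0.839 under shStau2. Then 15.1% and 13.5% of starts were lower, so the place of KIT among the starts was near equal under the hairpins. This second measure was added after the data were seen.

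Away from the start, KIT had weak H3K4me2 alone. A peak 10.5 kb into the gene had 4.92-fold enrichment under shControl and 6.98-fold under shStau2, with scaled pileups of 0.992 and 1.00. A peak 15.1 kb past the 3' end, which touches the lower end of the long non-coding RNA gene LOC105377657, had 7.31-fold and 8.46-fold. These peaks stood in both lists at like pileups. A peak 18.6 kb into the gene was in the shControl list only, with 4.31-fold enrichment and 13 fragments at its summit. A peak 14.8 kb past the end was in the shStau2 list only, with 3.28-fold and 17 fragments. It ended at 54755693, close beside the shared peak past the 3' end, which began at 54755784 under shStau2.

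CD44, on chromosome 11 from 35139171 to 35232402, had H3K4me2 at its start under each hairpin and H3K4me3 there under shStau2 only. The H3K4me2 peak spanned 35138720 to 35139759 under shControl and 35138694 to 35139909 under shStau2. Its fold enrichment was 11.2 and 14.2, and its scaled pileup 1.37 and 1.72, a ratio of 1.25 that was higher than at 69.8% of matched peaks. The H3K4me3 peak of shStau2 spanned 35138863 to 35139586, inside the H3K4me2 peak, with 9.27-fold enrichment and 29 fragments at its summit, a scaled pileup of 1.10. This fold is above a raised threshold of 7.73, which is the fold that 5% of shControl peaks fall below, 3.97, multiplied by the median ratio. The H3K4me3 fold enrichment was 0.652 times that of H3K4me2, with lower values at 8.99% of starts with both marks. No H3K4me3 peak was listed over CD44 or its flanks under shControl. The divergent non-coding gene CD44-DT has a listed start within 1 kb of these peaks, so they cannot be assigned to CD44 alone.

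Absence from a list is not absence of the mark. Divided by the median pileup ratio of all matched H3K4me3 peaks, the CD44 scaled pileup comes to 0.595, or 18.3 fragments at the depth of the shControl library. That library's list held peaks with as few as 12 fragments where the background was at its lowest. Of 741 H3K4me3 peaks of shStau2 within 0.5 of the CD44 fold enrichment, 33.9% were in that list only. A start with an H3K4me3 peak within 1 kb in the shStau2 list only was found at 3.51% of 15812 genes, and in the shControl list only at 0.0885%. CD44 was also the member past 1.5-fold more H3K4me3 bases, as were 21.7% of genes with 500 or more covered bases in 1 list. CD44 carried 1 further H3K4me2 peak, 5.63 kb past its 3' end, with 5.16-fold and 4.17-fold enrichment and scaled pileups of 0.610 and 0.786. There fold enrichment and pileup differed in opposite directions, and the background was 1.42 and 3.0.

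CD34, on chromosome 1 from 207880972 to 207911125, had its strong marks outside the gene. The strongest peak lay 11.6 kb past the 3' end (distances from a gene are to the nearest edge of the peak), at 207868184 to 207869379 under shControl, and no RefSeq start lies within 1 kb of it. It carried H3K4me3 with 22.1-fold enrichment under shControl and 70.1-fold under shStau2, and H3K4me2 with 23.8-fold and 40.4-fold. The H3K4me3 ratio of 3.17 was higher than at 92.7% of matched peaks, yet the scaled pileup of 5.82 and 10.2 gave a ratio of 1.76, higher than at 34.9%. The background at that summit was 4.0 under shControl and 1.92 under shStau2. For H3K4me2 the scaled pileup was 5.0 and 5.79, a ratio of 1.16 that was higher than at 55.6% of matched peaks. Both pileup ratios at this element thus lay close to the medians of 1.85 and 1.13 over all matched peaks.

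The matched H3K4me2 peaks of CD34 with the highest and the lowest fold ratio lay on opposite sides of the gene and differed in opposite directions. A peak 6.90 kb past the 3' end had 4.47-fold enrichment under shControl and 11.6-fold under shStau2, with scaled pileups of 1.37 and 1.93. Its fold ratio of 2.59 was higher than at 98.4% of matched peaks and its pileup ratio of 1.41 higher than at 85.4%, beside backgrounds of 5.0 and 2.40. A peak 12.0 kb before the start had 8.95-fold and 5.06-fold enrichment, with scaled pileups of 1.37 and 0.965. Its fold ratio of 0.565 was higher than at 2.18% and its pileup ratio of 0.703 higher than at 3.11%, beside backgrounds of 2.00 and 3.0. Relative to the medians, the pileup ratios of this pair ran the same way as the fold ratios. Within the gene, a weak peak 27.7 kb from the start was in both lists, with 3.48-fold and 4.84-fold enrichment.

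The CD34 start carried no H3K4me3 under either hairpin and a small H3K4me2 peak under shControl only. That peak, at 207910726 to 207911023, was 298 bases wide, with 4.67-fold enrichment and 15 fragments at its summit. It also lies within 1 kb of the start of the non-coding gene LOC107985253, which overlaps the start of CD34. At the median pileup ratio it would hold 18.0 fragments in the shStau2 library, whose list held peaks with as few as 9. Of 10545 shControl peaks of like fold enrichment, 22.01% were in that list only. A start peak of H3K4me2 in the shControl list only was found at 0.572% of 11893 genes, and in the shStau2 list only at 2.17%.

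The other CD34 peaks in 1 list only had lower fold enrichment still. Under shControl they lay 6.60 kb into CD34 and 1.47 kb past its 3' end, with 4.25-fold and 3.66-fold enrichment. Under shStau2 they lay 25.7 and 28.3 kb from the start within the gene and 18.8 kb past its end, with 3.66-fold, 3.18-fold and 3.28-fold. CD34 thus had 7 H3K4me2 peaks under each hairpin, 3 of them in that list only. At least 1 H3K4me2 peak in 1 list only was found over 32.6% of genes for shControl and 54.7% for shStau2. Covered bases came to 5651 and 5674. This difference of 23 bases was not stable: it was negative under 5 alternative settings, and 859 and 1549 bases with stricter limits on q and on fold enrichment.

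**Figure D2:**
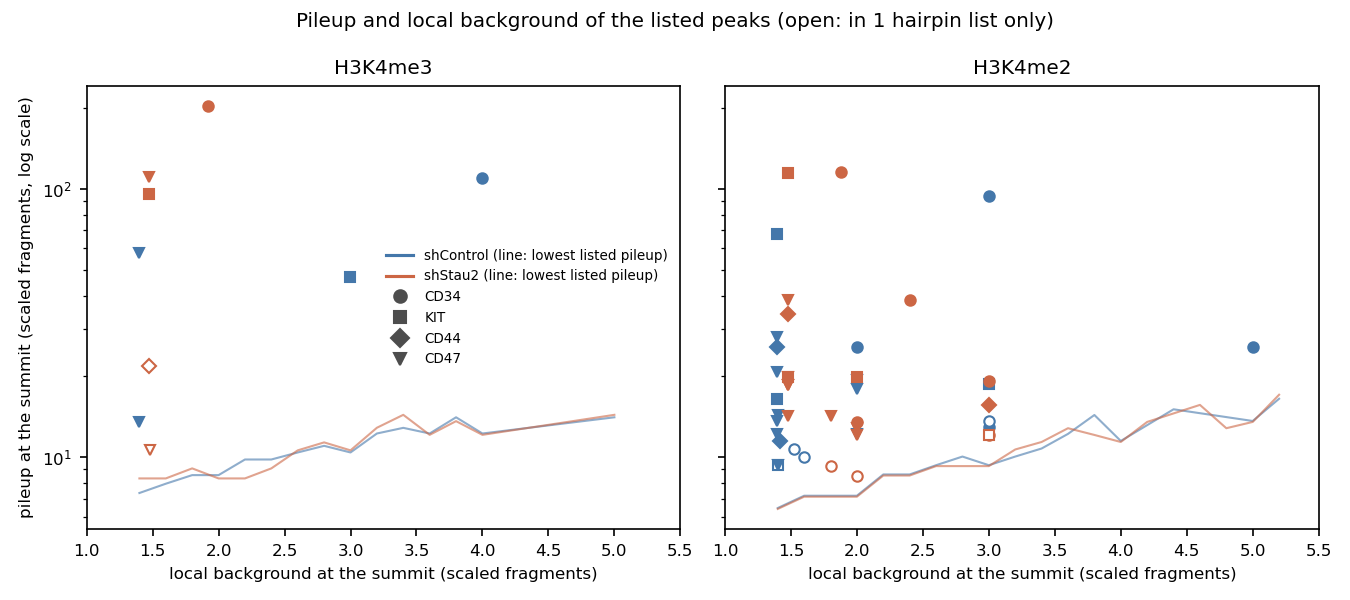
Pileup at the summit (log scale) against the local background in the input, both in fragments scaled to the input library, for each listed peak of the members; open symbols are peaks in 1 hairpin list only and lines give the lowest pileup listed at each background. The H3K4me2 peaks in 1 list only have pileups of 8.54 to 13.64, and the CD44 H3K4me3 peak stands higher at 21.95. The strongest CD34 and KIT peaks under shControl stand at higher backgrounds than under shStau2 for H3K4me3. For KIT the summits of the hairpins lie at different positions.

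CD47, on chromosome 3 from 108043091 to 108091031, carried both marks at its start and a run of H3K4me2 peaks before it. The H3K4me3 peak at the start spanned 108090031 to 108091802 under shControl, with 24.5-fold enrichment and a scaled pileup of 3.06. Under shStau2 it spanned 108089516 to 108091739, with 45.3-fold and a scaled pileup of 5.59, and overlapped 2 shControl peaks. The smaller of these, at 108089634 to 108089931, had 6.03-fold enrichment. A peak 1.89 kb into the gene, with 4.68-fold and 14 fragments, was in the shStau2 list only. At the median pileup ratio it would hold 8.83 fragments under shControl, below the lowest listed count of 12. Among peaks of like fold enrichment 88.7% were in the shStau2 list only, and 32.8% of genes had at least 1 such H3K4me3 peak in their window. For the shControl list this was 1.03% of genes, and none of the 5 members.

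Under shControl the annotated CD47 start lay in a gap between 2 H3K4me2 peaks. These spanned 108088253 to 108090963, with 12.1-fold enrichment, and 108091129 to 108091850, with 9.11-fold. Under shStau2 a single peak from 108088631 to 108092327 overlapped both and covered the start, with 15.9-fold. A weak peak further into the gene was in both lists, with 4.31-fold and 4.37-fold. The H3K4me3 fold enrichment at the start was 2.02 times that of H3K4me2 under shControl and 2.85 times under shStau2, higher than at 92.3% and 83.6% of starts with both marks. CD47 and KIT thus lay on opposite sides of the median of that ratio under each hairpin.

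Before the CD47 start, 6 H3K4me2 peaks lay 5.99 to 17.4 kb upstream under shControl, and each had a matched peak under shStau2. All but the nearest lie within the non-coding gene LOC105374031, and none carried H3K4me3. Their fold enrichments ran from 4.40 to 6.80 under shControl and from 4.61 to 8.46 under shStau2. Their pileup ratios ran from 0.888 to 1.43, and only the highest lay above the median of 1.13. CD47 had no H3K4me2 peak in 1 hairpin list only. Its covered bases, 8427 and 10098, were the most of the 5 genes, a ratio of 1.2 that was higher than at 70.8% of genes.

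PROM1, on chromosome 4 from 15968228 to 16084023, had 0 listed peaks of either mark under either hairpin over 155796 bases, its 4 annotated starts included. This was so for 1159 of 14728 genes, or 7.87%, and for 119 of the 1919 whose windows were at least as long. An unlisted mark may still lie below the 9 to 12 fragments of the weakest peaks listed at the lowest background.

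**Figure D3:**
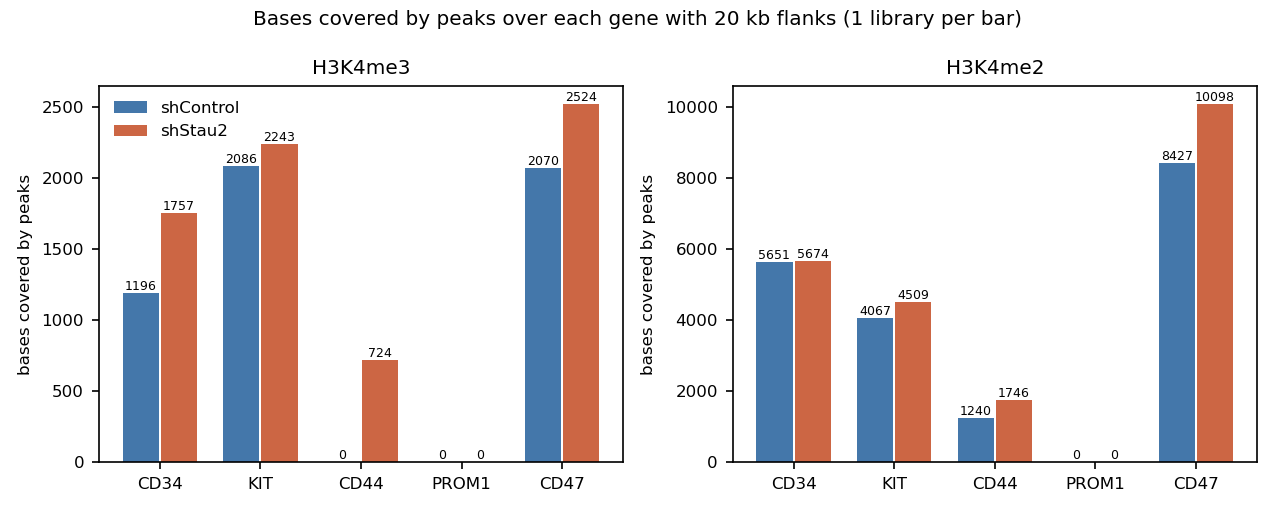
Bases covered by listed peaks over each gene with 20 kb flanks, 1 library per bar. CD47 has the most H3K4me2 (8427 and 10098 bases), CD44 has 724 bases of H3K4me3 under shStau2 and 0 under shControl, and PROM1 has 0 throughout.

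Sorted by marks within 1 kb of a start, the members fell into 4 courses from shControl to shStau2. KIT and CD47 had both marks under each hairpin, as did 7774 of the 7783 genes that had both under shControl. Taken by mark, 64.2% of starts had H3K4me3 in both lists and 32.2% in neither, and 72.1% had H3K4me2 in both and 25.2% in neither. CD44 went from H3K4me2 only to both marks, as did 325 genes, 2.73% of the 11893 compared and 37.9% of the 858 with H3K4me2 only. CD34 went from H3K4me2 only to no mark, as did 68 genes, 0.572% of those compared and 7.93% of the same 858. PROM1 had no mark in either, like 2971 genes. In these lists CD44 and CD34 thus left the same class in opposite directions. The class of CD34 rests on 1 weak peak, with 4.67-fold enrichment, 15 fragments and −log10 q of 4.42. Limits of 5 on fold enrichment or 10 on −log10 q drop that peak, and CD34 then has no start mark under either hairpin.

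Across the matched peaks the members showed no common course for H3K4me2. Of 15 matched H3K4me2 peaks 9 had a fold ratio above the median of all matched peaks and 7 a pileup ratio above it. Of the same 15 peaks 12 were wider under shStau2, but the median width ratio of all matched H3K4me2 peaks was itself 1.08. Fold ratios of the members ran from 0.565 to 2.59. Of the 2 matched H3K4me3 peaks, at KIT and beyond CD34, both had a fold ratio above the median and 1 a pileup ratio above it. Covered bases of H3K4me3 had ratios of 1.08 at KIT, 1.22 at CD47 and 1.47 at CD34, higher than at 5.5%, 40.2% and 78.3% of genes. The CD34 bases all lie in the peak beyond its 3' end. For H3K4me2 the ratios of covered bases were 1.00 at CD34, 1.11 at KIT and 1.41 at CD44. None of the 5 had 1.5-fold more or fewer H3K4me2 bases, against 8.55% and 0.608% of all genes.

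**Figure D4:**
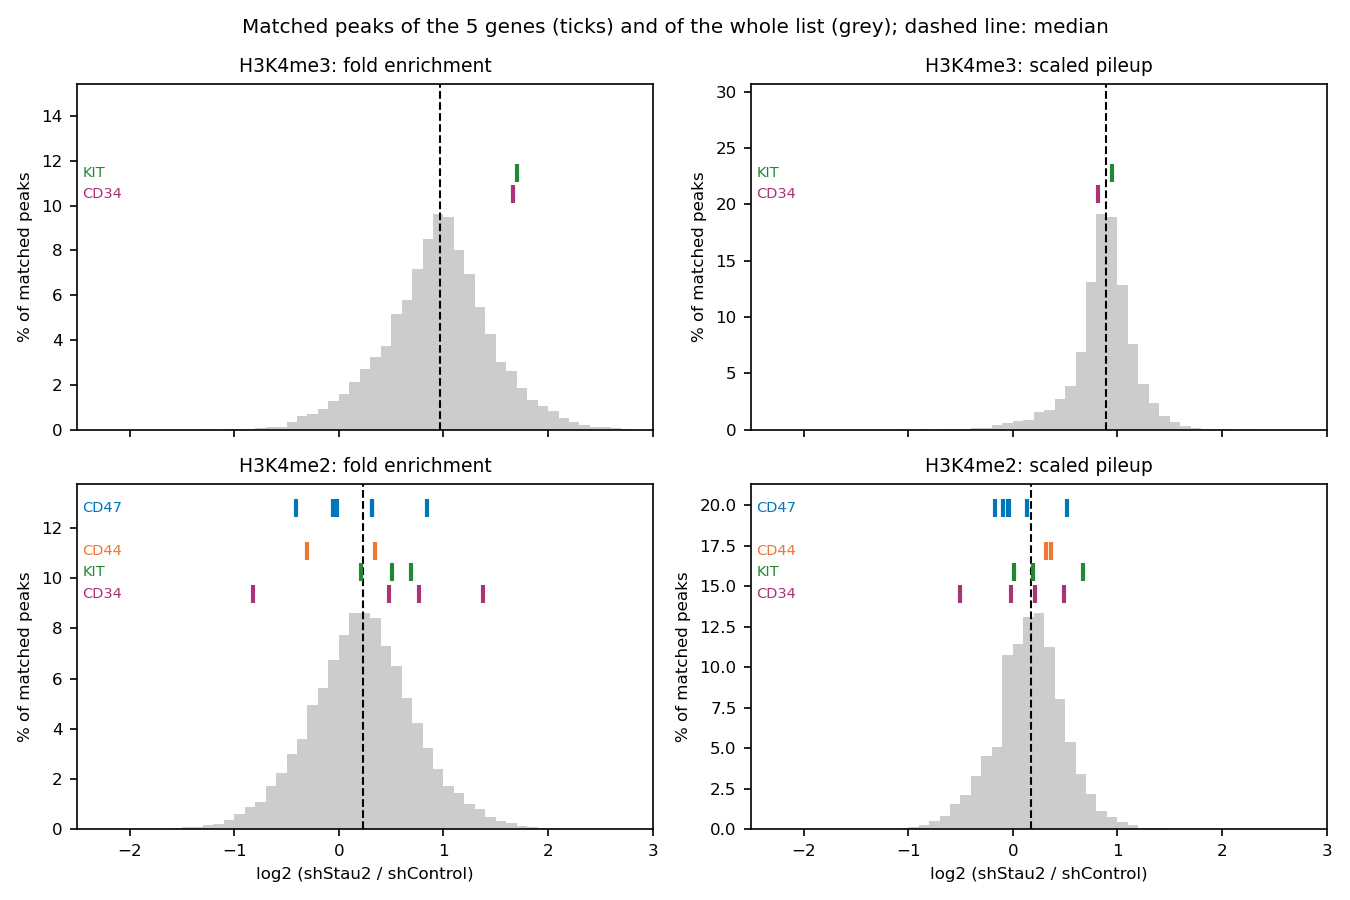
Distribution of the log2 ratio of shStau2 to shControl over all 1 to 1 matched peaks (grey, in percent; dashed line at the median) with the matched peaks of the members as ticks. The KIT and CD34 H3K4me3 ticks stand to the right of the median for fold enrichment (ratios 3.26 and 3.17) and beside it for scaled pileup (1.93 and 1.76), and the CD34 H3K4me2 ticks spread to both sides.

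The ligands, partners, relatives and fellow markers of the 5 genes were drawn from 4 lists holding 62 genes. Of 39 with 500 or more H3K4me3 bases in 1 list, 16 had 1.5-fold more under shStau2 (41.0%) and 0 had fewer, beside 21.7% and 0.00643% of all genes. Their median ratio was 1.42 over 36 genes, against 1.26 over 15130. For H3K4me2, compared for 47 of the genes, 9 of 42 had more (21.4%) and 1 had fewer, beside 8.55% and 0.608% of all genes. The median H3K4me2 ratio was 1.08 against 1.11. With the raised threshold for shStau2, 10 of 35 still had more H3K4me3, against 12.8% of all genes. For H3K4me2, 7 of 42 then had more, against 7.25% of all genes, and 2 had fewer, against 1.01%. The calls of SIRPA, KDR, IL1RAP, IL2RA, PODXL and ITGA6 for H3K4me3, and of LYVE1 and CD96 for H3K4me2, were lost under that threshold. The shares of all genes with more bases, 21.7% for H3K4me3 and 8.55% for H3K4me2, also stand beside the counts of each list below. Nothing particular to these lists is drawn from the shares.

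Among ligands and partners, 4 of 15 had more H3K4me3. KITLG, the ligand of KIT, had 0 bases under shControl and 1032 under shStau2, with a start peak of 7.74-fold under shStau2, just above the raised threshold of 7.73. H3K4me2 at its start had 4.56-fold and 13.6-fold enrichment. SIRPA, the receptor of CD47, had 209 and 1301 bases, a call lost with the raised threshold, and THBS1, which encodes a secreted protein that binds CD47, had 547 and 988. For H3K4me2, 3 of 16 had more and SELP had fewer. SELP, a selectin of platelets and vessel walls, had 1680 and 1097 bases. SPP1, which encodes the CD44 ligand osteopontin, had 549 and 858.

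Among stem and progenitor surface genes, 5 of 11 had more H3K4me3 and 2 of 13 more H3K4me2. KDR, a receptor for vascular growth factor, had 0 and 652 H3K4me3 bases, with a start peak of 4.87-fold that lies below the raised threshold. FLT3, a cytokine receptor related to KIT, had 303 and 702, and the chemokine receptor gene CXCR4 had 773 and 1688. CD38, an enzyme that marks committed progenitors, had 1997 and 4465 H3K4me2 bases. Among leukaemia stem cell surface genes, 6 of 10 had more H3K4me3, led by IL1RAP, a co-receptor of interleukin 1, with 0 and 576 bases, CD70 with 821 and 2209, and IL2RA with 337 and 708. Of these 3, CD70 passed with the raised threshold. For H3K4me2, 4 of 11 had more, led by CD9 (1810 and 3689), IL2RA (5206 and 9936) and IL1RAP (740 and 1337). Of the relatives, 2 of 4 had more H3K4me3: FLT3 and PODXL, a sialomucin of the CD34 family, with 1126 and 1796 bases. LYVE1, a hyaluronan receptor related to CD44, had more H3K4me2, with 4615 and 7746. Each of these windows also counts peaks of neighbouring genes.

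The genes most like each member were found by the Euclidean distance of log2 percent covered, plus 0.1, over the 4 ChIP libraries, among 14727 others. NOTCH3, MPP3 and PARP16 were nearest to CD34, at distances of 0.10, 0.11 and 0.12. STK39, NPEPPS and CRB1 were nearest to KIT, at 0.10, 0.10 and 0.11. IRAG2 was nearest to CD44 at 0.06, followed by DEFB119 at 0.17 and IQCF1 at 0.18. EMILIN2, SPATA31H1 and FOXO6 were nearest to CD47, at 0.09, 0.10 and 0.11. PROM1 shares its zeros with the other genes among the 1159 with no peak, so none of them is nearer than another.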

How the data were processed

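ChIP-seq for H3K4me2 and H3K4me3 was done in K562 cells with 1 library per mark and hairpin, grouped by sample title. Bowtie2 and the hg38 build are named in the submitters' processing notes. Per the file headers, MACS2 version 2.1.2 called peaks per library against the input of the same hairpin, at a q-value of 0.05, with fragments of 200 bases and 1 tag kept per position. The deposited lists give the signal (pileup at the summit, scaled to the input), the fold enrichment as a ratio, the −log10 of the p-value and q-value, and the peak width.

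Both deposited H3K4me2 lists end early, so the comparison of this mark took 16 chromosomes in full and chromosome 4 as far as 185623562; all 5 genes lie inside. Fragments were recovered as pileup divided by the ratio of input to ChIP tags, and 100% of peaks gave whole numbers within 0.05. The local background is the pileup plus 1, divided by the fold enrichment, minus 1; its lowest value equals the genome-wide input rate, 1.39 under shControl and 1.48 under shStau2. Peaks were shared when they overlapped by 1 base, and matched when each overlapped 1 peak of the other list. Starts came from RefSeq promoters, with windows of 1 kb on each side. A gene passed the fold rule with 1.5-fold more or fewer covered bases and at least 500 in 1 list. Overlap and coverage were tested on simulated data.

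The members and lists were chosen with earlier results of these data known. The rule for named genes took all 5 members and up to 3 genes in each direction per list and mark. Some genes that this rule would name are not reported here. Settings tried besides were −log10 q of 10, fold enrichment of 5, a raised shStau2 threshold (3.97 and 7.73 for H3K4me3, 3.30 and 3.86 for H3K4me2), equal peak numbers, flanks of 0, 10 and 50 kb, merged or widened peaks, 50% reciprocal overlap, scaled pileup ratios and a 2-fold rule. No test was run. Python 3.11.15, numpy 2.4.6 and pandas 2.3.3 were used.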

Additional observations from a re-analysis of the deposited data

How the results depend on the processing

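No paired analysis was possible because each mark and hairpin has 1 library. For the same reason no replicate was left out.

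With −log10 q of 10 or more, H3K4me2 peaks over the 5 genes numbered 8 under shControl and 10 under shStau2, with 11714 shControl bases, 1 peak was in the shControl list only, and 1 H3K4me3 peak was in the shStau2 list only. The CD34 H3K4me2 difference was then 859 bases. With fold enrichment of 5 or more, H3K4me2 peaks numbered 13 and 13, with 2 in the shControl list only, 1 H3K4me3 peak was in the shStau2 list only, CD44 had -24 H3K4me2 bases under shStau2 relative to shControl, and CD34 had 1549. With the raised shStau2 threshold, 1 H3K4me3 peak (at CD44) and 0 H3K4me2 peaks were in the shStau2 list only, the H3K4me2 difference over the 5 genes was 1686 bases, and that at CD34 was -714. With equal numbers of peaks, 1 H3K4me3 and 1 H3K4me2 peak were in the shStau2 list only, and the CD34 H3K4me2 difference was -514. These settings keep fewer weak peaks by construction.

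With flanks of 0 kb, H3K4me3 covered 3089 and 4077 bases, a difference of 988. H3K4me2 had 9 and 8 peaks over 7976 and 8080 bases, a difference of 104, with 2 peaks in the shStau2 list only. The H3K4me2 difference was then -95 bases at CD34 and -56 at CD47. With flanks of 10 kb, shStau2 had 12 H3K4me2 peaks, 2 of them in its list only, over 14634 bases. The difference over the 5 genes was 1467 and that at CD34 -120. With flanks of 50 kb, shStau2 had 32 H3K4me2 peaks, 7 of them in its list only, and the difference at CD34 was -575. For H3K4me3 the difference at CD34 was 561 bases with flanks of 20 kb and 0 with flanks of 0 or 10 kb. Narrower windows hold fewer peaks by construction. With 50% reciprocal overlap, 1 H3K4me3 and 7 H3K4me2 peaks were in the shControl list only. With peaks widened by 500 bases, 1 H3K4me3 and 2 H3K4me2 peaks were in the shStau2 list only. Beyond the fewer peaks kept, the cause was not tested.

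The median ratio of the 2 matched H3K4me3 peaks was 3.21 for fold enrichment and 1.84 for scaled pileup. The ratio of H3K4me3 to H3K4me2 at the KIT start under shControl was 0.417 by fold enrichment and 0.691 by scaled pileup. With a 2-fold rule, 8 list genes had more H3K4me3, 2 had more H3K4me2 and 0 had fewer. With flanks of 0 kb, 2 had fewer H3K4me2. With the raised threshold, 10 had more H3K4me3 and 2 had fewer H3K4me2. Of the other summary values, 86 stayed within 1.5 times and in direction. The weakest peaks listed at the lowest background rest on 9 to 12 fragments.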
